A study of Mus musculus with 9 samples.

Results

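The sites described here are 59 genomic regions over 2 kb from every GENCODE M21 transcript start at which BRG1 signal was at least 2-fold that of PBRM1 in mouse oviductal smooth muscle cells. They were chosen by the measured ratio itself. Peaks of the 6 replicate lists on chromosomes 1 to 19 were merged into 81587 regions, 12655 regions had a peak in every list, and 4460 of these had a midpoint that far from every start (distal sites). For each distal site the highest peak pileup, which is the number of overlapping fragments at the summit, was taken from the pooled list of each antibody and expressed per 1000000 fragments of that list (FPM). The 59 sites with a BRG1/PBRM1 ratio of at least 2 made up 1.32% of the distal sites.

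Chromatin immunocleavage sequencing (ChIC-Seq) directs a nuclease to an antibody target in fixed cells and sequences the DNA that is released. The cells were primary oviductal smooth muscle cells of wild-type (WT) mice 8–12 weeks old, isolated on day 2 of pregnancy. PBRM1 and BRG1 were each profiled in 3 libraries, all from this 1 genotype, treatment and time, and the 3 IgG libraries in the labels were not analysed here. The libraries held 14284532 to 23992352 fragments, and the labels do not state whether replicates came from separate mice or cultures, so a p-value below measures only the spread between these libraries.

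BRG1 is an ATPase of SWI/SNF chromatin-remodeling complexes and is shared by their canonical BAF, PBAF and noncanonical BAF forms. PBRM1 (BAF180) is a bromodomain subunit of PBAF alone. BRG1 is known to occupy both promoters and enhancers, and in smooth muscle it is known as a partner of the contractile gene program.

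Of 12 smooth muscle marker genes, 7 had a promoter peak in all 6 lists, *Acta2*, *Tagln* and *Smtn* among them, whereas *Cnn1* had none and *Myh11* had a peak in 1 list. None of 8 epithelial markers, none of 5 immune markers and none of 5 fibroblast markers had a promoter peak in every list, and 1 of 5 endothelial markers (*Tek*) did. No list held a peak at 1 smooth muscle, 4 epithelial, 3 immune, 1 fibroblast and 2 endothelial markers. The fibroblast marker *Col1a2* and the endothelial marker *Kdr* had a peak in 5 lists. These counts therefore do not exclude other cell types, and the share over all genes is not given here. A promoter peak records occupancy and not expression.

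The DNA beneath the strongest ratios is shown, chosen by ratio and not by sequence. Of the 59 sites, 28 are rich in CpG dinucleotides, as are all 5 printed. Each sequence is the forward strand of GRCm38, 5′ to 3′, from 100 bp before to 100 bp after the pooled BRG1 summit, and capitals mark every CpG. Sites are named for the protein-coding gene that contains them or, failing that, has the nearest start. They are 5 of the 6 sites with the highest ratios, and the remaining one, nearest to *Cetn1*, is not printed. It was not CpG-rich, with a GC content of 48.9% and 0.235 of the expected CpG count within 250 bp of its summit. In all, 31 of the 59 sites were not CpG-rich.

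1700008O03Rik (chr7:44360022-44360222): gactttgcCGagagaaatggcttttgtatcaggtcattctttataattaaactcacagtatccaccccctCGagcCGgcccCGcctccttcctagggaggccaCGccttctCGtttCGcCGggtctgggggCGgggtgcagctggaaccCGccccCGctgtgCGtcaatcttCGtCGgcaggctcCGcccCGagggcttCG
Hlf (chr11:90417973-90418173): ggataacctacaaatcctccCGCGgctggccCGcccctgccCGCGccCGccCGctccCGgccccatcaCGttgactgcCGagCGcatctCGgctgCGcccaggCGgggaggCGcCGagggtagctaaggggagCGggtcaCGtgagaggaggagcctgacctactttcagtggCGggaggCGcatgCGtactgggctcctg
Ptprf (chr4:118260872-118261072): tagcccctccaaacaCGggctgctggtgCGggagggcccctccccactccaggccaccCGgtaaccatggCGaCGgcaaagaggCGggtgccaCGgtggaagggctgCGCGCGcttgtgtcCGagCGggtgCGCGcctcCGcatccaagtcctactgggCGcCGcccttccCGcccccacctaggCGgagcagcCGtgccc
Ezh2 (chr6:47651112-47651312): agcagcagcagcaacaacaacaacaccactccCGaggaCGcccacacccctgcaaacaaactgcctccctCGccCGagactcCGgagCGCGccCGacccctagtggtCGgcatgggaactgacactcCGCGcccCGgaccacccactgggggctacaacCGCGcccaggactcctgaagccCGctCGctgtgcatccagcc
3110082I17Rik (chr5:139372182-139372382): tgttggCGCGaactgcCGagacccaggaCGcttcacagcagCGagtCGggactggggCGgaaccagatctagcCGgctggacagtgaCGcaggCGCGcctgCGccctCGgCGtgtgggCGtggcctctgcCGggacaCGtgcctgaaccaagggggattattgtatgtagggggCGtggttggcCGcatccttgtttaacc

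These windows held 17, 21, 20, 16 and 19 CpG dinucleotides in the order printed. Their GC content was 61.7%, 70.6%, 72.6%, 67.2% and 65.2%. The GC box GGGCGG, a word recognized by SP and KLF zinc-finger factors, occurred on either strand 3 times in the *1700008O03Rik* window, 2 times in the *Hlf* window, 2 times in the *Ptprf* window, not at all in the *Ezh2* window and 1 time in the *3110082I17Rik* window.

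The highest ratio was 2.84, in an exon within *1700008O03Rik* (ENSMUSG00000008028.15; chr7:44359868-44360593), 2334 bp from the nearest transcript start. The BRG1 libraries had 1.70, 1.89 and 2.33 FPM at the summit and the PBRM1 libraries had 0.808, 0.993 and 0.709. The lowest BRG1 library therefore lay above the highest PBRM1 library.

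An intergenic site (chr11:90417809-90418519) 27269 bp from the start of *Hlf* (ENSMUSG00000003949.16), which encodes a PAR-domain bZIP transcription factor, had the second highest ratio, 2.74. Its BRG1 pileups were 1.76, 1.82 and 2.13 and its PBRM1 pileups were 0.707, 0.772 and 0.750 FPM. This was the 1 site among the 59 at which every BRG1 library was at least 2-fold above every PBRM1 library, and no other distal site met that rule (0.0224% of the 4460).

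The site nearest to *Cetn1*, a centrin gene (ENSMUSG00000050996.7; chr18:9552544-9553438, intergenic, 5694 bp from the nearest start), had a ratio of 2.69, with BRG1 at 1.20, 1.47 and 1.33 and PBRM1 at 0.657, 0.552 and 0.458 FPM. In an intron of *Ptprf*, a receptor tyrosine phosphatase (ENSMUSG00000033295.14; chr4:118260638-118261174), the ratio was 2.53. BRG1 was at 1.32, 0.770 and 1.13 and PBRM1 at 0.556, 0.552 and 0.417 FPM there. Both sites had weak signal, with the 2 groups of libraries not overlapping.

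An intergenic site 55783 bp from the start of *Ezh2*, the histone H3 lysine methyltransferase of Polycomb complex PRC2 (ENSMUSG00000029687.16; chr6:47650623-47651625), combined a ratio of 2.52 with the third highest BRG1 signal of the set. Its BRG1 libraries had 4.47, 3.64 and 4.86 FPM and its PBRM1 libraries had 1.57, 2.26 and 1.79. The remaining 5 of the 10 highest ratios ran from 2.43 to 2.27. They were intronic in *3110082I17Rik* (chr5:139371840-139372548, 2449 bp from *Mir339*) and in *Ttll5*, a tubulin polyglutamylase gene (chr12:86000546-86001293), and intergenic nearest to *Kdm8*, *Akna* and *Lrp3*. In all 10, every BRG1 library exceeded every PBRM1 library, as the plot of pileup by library shows.

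**Figure D1:**
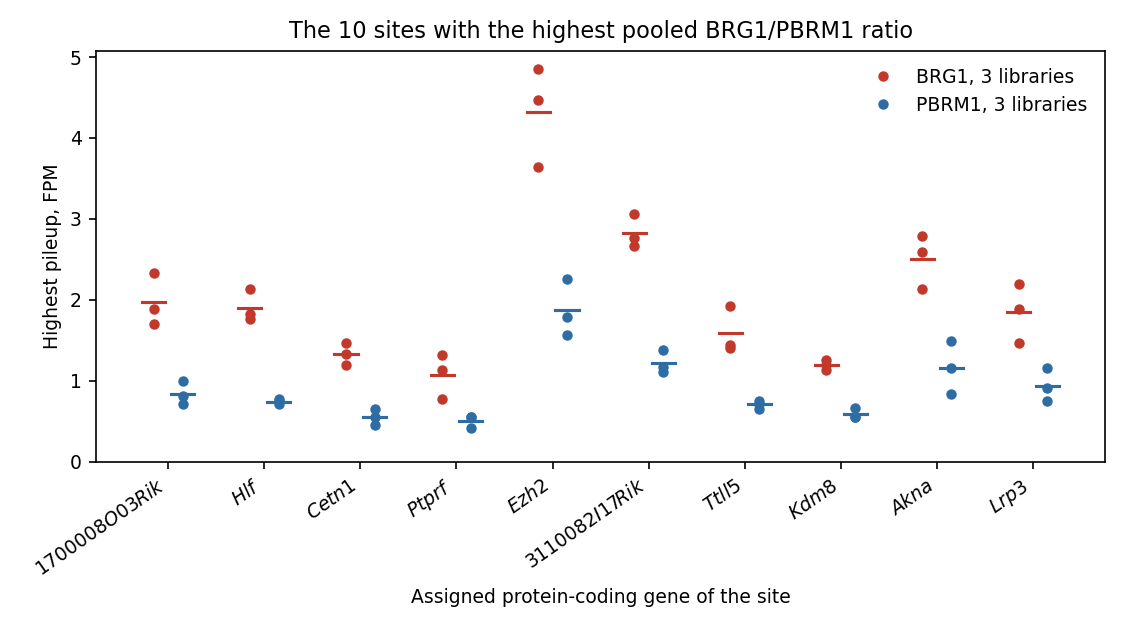
Highest pileup in FPM (vertical axis) in each of the 3 BRG1 and 3 PBRM1 libraries at the 10 sites with the highest pooled ratio, named by assigned gene. Points are libraries and bars are means; the BRG1 points lie above the PBRM1 points at each site, and *Ezh2* has the highest signal of the 10, with BRG1 points from 3.64 to 4.86.

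Ranked by BRG1 signal instead, 1 site stood well above the rest. It lay 4228 bp from the start of the processed pseudogene *Gm11668* and 91530 bp from *Axin2*, a scaffold that restrains Wnt signaling (ENSMUSG00000000142.15; chr11:109011651-109012107). BRG1 was at 16.2, 12.4 and 15.6 and PBRM1 at 7.63, 7.50 and 5.75 FPM, a pooled ratio of 2.18. PBRM1 signal there was thus also the highest of the 59 sites, with a pooled value of 6.80 against a median of 0.808. Peaks were called with no control file, the IgG libraries were not analysed and no artifact-prone regions were removed here. Nonspecific signal at this and other strong sites was therefore not tested.

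An intron of *Cdk8*, which encodes the kinase of the Mediator complex (ENSMUSG00000029635.15; chr5:146260990-146261354), followed, with BRG1 at 9.37, 9.94 and 10.8 and PBRM1 at 5.61, 4.97 and 4.00 FPM. Of the 31-base words within 100 bp of its summit, 32.7% occurred elsewhere in the genome. *Ezh2* came next, then *Fosb* (3.40, 2.73 and 4.92 for BRG1; 2.12, 1.93 and 2.00 for PBRM1) and *Scd2*, a stearoyl-CoA desaturase gene (3.84, 2.73 and 3.92 for BRG1; 1.57, 2.32 and 1.29 for PBRM1). Strong and weak sites were therefore both present, as the plot of the pooled lists shows.

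**Figure D2:**
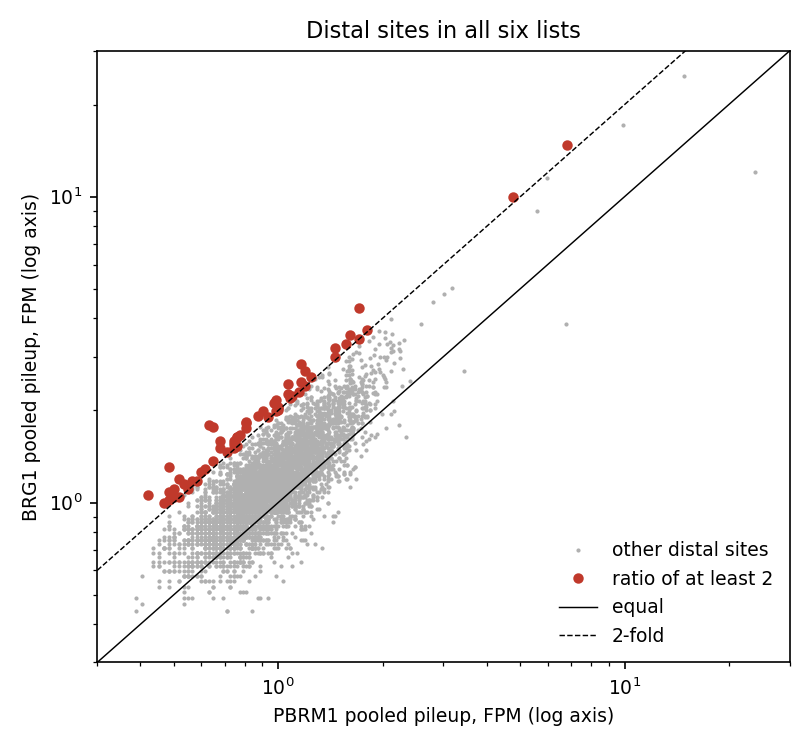
Pooled BRG1 pileup in FPM against pooled PBRM1 pileup in FPM, both on log axes, for the 4460 distal sites present in all lists. Gray points are the 4401 sites with a ratio under 2, red points are the 59 with a ratio of at least 2, and lines mark equality and a 2-fold ratio. Most red points lie just above the 2-fold line.

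Across the 59 sites the pooled BRG1 pileup had a median of 1.81 FPM and ran from 0.995 to 14.8. The median was 1.15 at the other 4401 distal sites. The pooled PBRM1 pileup had a median of 0.808 FPM and ran from 0.420 to 6.80, against a median of 0.969 elsewhere. These pileups are the values that chose the sites, so the medians are given as a description. In unscaled fragments, the highest pileups of these sites in single libraries had medians of 19 to 29.

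Ratios sat close to the threshold and depended on the scale between antibodies. Over all 12655 regions the median ratio on the FPM scale was 1.42, so BRG1 was the higher signal at most sites. With each antibody divided by its own median over those regions, 1 of the 59 sites, *1700008O03Rik*, kept a ratio of at least 2 (2.02). On the FPM scale, the median of the 59 was 2.12, and 25 of the 59 were under 2.1 while 5 reached 2.5. Just inside the threshold were the sites assigned to *Ccnl1* (cyclin L1, 2.00), *Spred2* (an inhibitor of Ras-ERK signaling, 2.01) and *Opa1* (a mitochondrial fusion GTPase, 2.01). Just outside were those assigned to *Rgma* (2.00 after rounding, 51 against 35 fragments), *Ccdc184* (1.99) and *Kdm7a* (1.99). The exact binomial 95% interval of the ratio, which covers counting error only, was 1.92 to 4.28 at *1700008O03Rik* and 1.92 to 2.46 at *Axin2*. No site of the 59 had an interval wholly at or above 2.

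The separate libraries varied around the pooled ratio. Every BRG1 library was above every PBRM1 library at 57 of the 59 sites, against 30.8% of all distal sites; this follows in large part from the choice of sites, since the pooled lists combine the same libraries. The exceptions were *Fam69c* (lowest BRG1 0.755, highest PBRM1 0.772) and *Gm525* (0.910 and 1.16). With the mean of the 3 replicate lists in place of the pooled list, 26 sites kept a ratio of at least 2, and the lowest of the 59 was 1.51. Paired by replicate number, the median ratio was 1.90 for replicate 1, 1.72 for replicate 2 and 2.39 for replicate 3, against 1.13, 1.19 and 1.29 at the other distal sites.

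To read the ratio in libraries that did not choose the sites, distal sites with at least a 2-fold ratio in 1 BRG1 and 1 PBRM1 library were taken for each of the 9 pairings, and the remaining 4 libraries were read. The pairings chose 94 to 307 sites, with median ratios of 2.15 to 2.21 in the choosing libraries. In the other 4 libraries the medians were 1.29 to 1.53, against 1.15 to 1.25 over all distal sites. A ratio of at least 2 recurred at 3.14% to 12.4% of the chosen sites, against 0.650% to 1.97% of all distal sites. At these chosen sites the excess over the distal median was therefore retained in part and the 2-fold size mostly was not. The part of sequence content in what recurred was not tested.

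CpG-rich sequence, a property that the ratio did not use, was more common at the 59 sites than at other distal sites. Most of the 59 still lacked it. Windows of 250 bp to either side of the BRG1 summit were called CpG-rich when GC content was at least 50% and the CpG count at least 0.6 of that expected from base composition. This held for 28 of the 59 sites (47.5%, Wilson 95% interval 35.3% to 59.96%) and for 256 of the other 4401 distal sites (5.82%, 5.16% to 6.55%). With each CpG class of distal sites divided by its own median ratio, a scaling chosen after seeing the data that removes the difference in median between classes, 37 sites reached 2 and 3 of them were CpG-rich (8.11%, against 6.35% of the others). Median GC content was 56.9% against 48.1%, and median observed/expected CpG was 0.574 against 0.236. The share of CpG-rich sites was 0.667% at ratios under 1, 4.14% from 1 to 1.5 and 19.4% from 1.5 to 2, so it climbed through every class of ratio. Sites share libraries and sequence context, so these shares are given as descriptions with no p-value.

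CpG-rich sequence was local. Windows centered 2 kb to either side of the 59 summits were CpG-rich in 1 of 118 cases (0.847%). Promoter regions present in all 6 lists were CpG-rich in 78.9% of 8195 cases, and in 93.0% of the 556 promoter regions with a ratio of at least 2, which were 6.78% of promoter regions. Within CpG-rich sequence, distal and promoter regions had like proportions at or above a ratio of 2, with 28 of 284 distal sites (9.86%) and 517 of 6464 promoter regions (8.00%). Outside it the proportions were 0.742% (31 of 4176) and 2.25% (39 of 1731).

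Short words within 100 bp of the summit differed accordingly. The GC box GGGCGG was present on either strand at 22 of the 59 sites (37.3%, Wilson 95% interval 26.1% to 50.0%), at 10.1% of the other distal sites and at 55.5% of promoter regions. In windows 2 kb from the 59 summits it was present in 5.93%. The ETS word CCGGAA, bound by a family of winged helix-turn-helix factors, was present at 9 sites (15.3%, 8.24% to 26.5%), against 3.93% of the other distal sites and 20.3% of promoter regions. Both words contain a CpG, so their frequency and CpG content cannot be told apart.

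Of the 24 words and motifs searched, 4 had a Wilson interval at the 59 sites wholly above the share in other distal sites, 1 had one wholly below it and 19 had one that included it. Those above were the GC box, the ETS word, the EBF word CCCNNGGG (20.3%, 12.0% to 32.3%, against 9.70%) and the CTCF core. The E-box CANNTG, bound by basic helix-loop-helix factors, was the 1 below (54.2%, 41.7% to 66.3%, against 68.4%). Base composition differed between the 59 sites and other distal sites, and its part in these shares was not tested.

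The AP-1 and TEAD words were among the 19, and their comparison depended on the window. The AP-1 word TGANTCA, bound by FOS and JUN dimers, was present at 8 sites (13.6%, 7.03% to 24.5%), against 17.5% of other distal sites and 3.73% of promoter regions. The TEAD word GGAATG, recognized by the DNA-binding partners of YAP, was present at 6 sites (10.2%, 4.74% to 20.5%), against 16.4% and 7.14%. Within 250 bp of the summit the differences from other distal sites were -26.1 percentage points for AP-1 and -21.3 for TEAD, larger than their 95% half-widths of 11.1 and 9.82. Within 50 bp they were 1.09 and -0.423, inside half-widths of 7.34 and 6.75. GGAATG and CCGGAA share the letters GGAA and can overlap. The core motif of CTCF, the insulator protein, was found at 3 sites (5.08%, 1.74% to 13.9%) and at 1.32% of other distal sites. Its asymmetric Wilson interval lay just above that share, while the difference of 3.77 points was smaller than the half-width of 6.09. With 3 sites this excess is not settled.

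**Figure D3:**
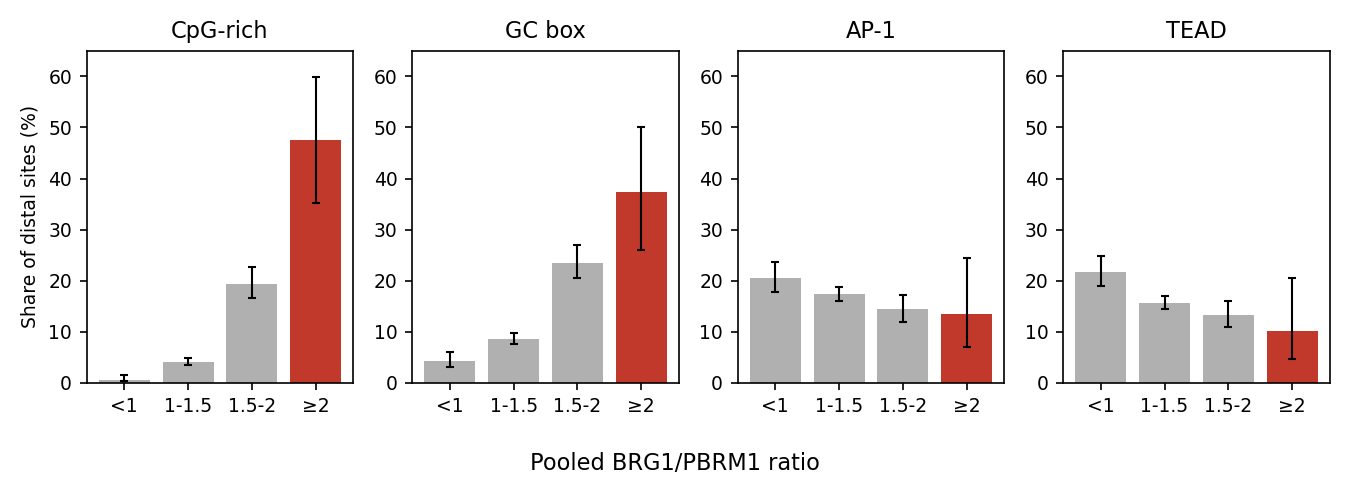
Share of distal sites (vertical axis, %) that were CpG-rich or held a GC box, AP-1 or TEAD word, by class of pooled BRG1/PBRM1 ratio (horizontal axis). Error bars are Wilson 95% intervals and red bars are the 59 sites; the CpG-rich share runs from 0.667% to 47.5% across classes and the GC box share from 4.27% to 37.3%, while the AP-1 and TEAD shares run from 20.5% to 13.6% and from 21.7% to 10.2%.

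The sites lay nearer to transcript starts than other distal sites did, though less often within introns. The median distance to the nearest GENCODE start was 7536 bp, against 14550 bp, and 18 of the 59 (30.5%) were within 5 kb, against 15.4%. The difference of -7014 bp shrank to -2733 bp with the mean of the replicate lists and to -1155 bp without PBRM1 replicate 3. Both were smaller than the 95% half-widths of the chosen sites' own median distance, 7741 and 8041 bp. Midpoints were intergenic at 35 sites (59.3%, against 49.2%), intronic at 17 (28.8%, Wilson 95% interval 18.8% to 41.4%, against 47.4%) and exonic at 7 (11.9%, Wilson 95% interval 5.87% to 22.5%, against 3.39% of other distal sites). RefSeq, which was not used to define distal sites, placed a transcript start within 2 kb of 12 sites (20.3%, 12.0% to 32.3%), against 6.38% of the other distal sites. Without PBRM1 replicate 3 that difference was 4.2 percentage points, smaller than the half-width of 11.7 of the chosen sites' own share. For 9 of the 12 the nearest such start belonged to a predicted transcript model and for 3 to a curated one. Predicted starts lay 166 bp from the *Ptprf* site, 180 bp from the *Ezh2* site, 364 bp from the *Akna* site and 74 bp from the *Lrp3* site. RefSeq-near starts were present at 8 of the 28 CpG-rich sites and at 4 of the other 31.

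The 59 sites were assigned to 59 different genes and were scattered over the chromosomes. The most on 1 chromosome was 8, on chromosome 11, and chromosome 13 had none of its 241 distal sites in the set. No site lay within 100 kb of another and 2 lay within 1 Mb of each other. Because no gene had more than 1 site, genes could not be ranked by their number of sites.

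Of the sites in the set, 2 lay at genes of the lists drawn up for this tissue. Whether that is fewer than the share of all distal sites would give was not tested. Of the 10 lists, only the AP-1 and immediate-early list had sites in the set, 2 of its 11 distal sites, at *Egr1* and *Fosb*, against 1.32% of all distal sites. The *Egr1* site, 26538 bp from the nearest *Egr1* start (ENSMUSG00000038418.7; chr18:34887510-34887980), had BRG1 at 2.26, 2.03 and 2.46 and PBRM1 at 1.26, 1.27 and 0.917 FPM, a ratio of 2.12. EGR1 is a zinc-finger factor induced within minutes by growth and stretch signals. The *Fosb* site (ENSMUSG00000003545.3; chr7:19319797-19320453), 10074 bp from the start of that AP-1 subunit gene and in an exon of an annotated transcript, had a ratio of 2.03.

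None of 13 distal sites at genes of the smooth muscle list was in the set, and their median ratio was 1.13. The same held for 37 sites at mesenchyme transcription factor genes (median 1.21), 49 at matrix genes (1.17), 33 at TGF-beta and BMP genes (1.25) and 18 at growth factor receptor genes (1.36). It held also for 16 sites at prostaglandin genes (1.34), 12 at YAP/TEAD genes (1.36), 8 at steroid receptor genes (1.38) and 10 at genes of other cell types (1.19). At 1.32% of distal sites, less than 1 site would be the background count in any of these lists, so the counts of 0 carry little information. The counts also cover only the genes on each list. Sites assigned to *Lefty2* (ratio 2.22), *Sgcd* (2.16) and *Adamts2* (2.11) were in the set, and these genes were not on the lists.

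The ratio moved with the background around the sites. The deposited fold enrichment sets the pileup against a background, the larger of a 10 kb local value and a genome-wide floor in the same list, and that background was recovered from the 2 columns. At the 59 sites the local background had medians of 0.230 FPM for BRG1 and 0.175 for PBRM1, and the median of its BRG1/PBRM1 ratio was 1.43 (quartiles 1.31 and 1.55). At the other distal sites that median was 1.04 (quartiles 0.859 and 1.21). BRG1 had the higher local background at 58 of the 59 sites, and at most of the other distal sites, whose median ratio was 1.04. The pileup ratio that chose the sites is close to the product of the fold-enrichment ratio and the background ratio. The choice therefore favors a high background ratio, and these values are given as a description. The background was at its genome-wide floor at 1 site for BRG1 and 2 for PBRM1, and elsewhere it includes the site itself, since the 10 kb are centered on it.

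The local background ratio also rose with GC content over all distal sites, from a median of 0.698 under 40% GC to 1.42 at 65% or more. The pileup ratio rose over the same classes from 1.01 to 1.60, and the share of sites at or above 2 rose from 0 of 90 to 14 of 94 (14.9%). In each pair of same-numbered replicates the median ratio was higher in the top class than in the bottom one, at 1.47 and 0.879, at 1.52 and 0.971, and at 1.85 and 0.977. The median fold-enrichment ratio did not follow this course, at 1.30 under 40%, 1.03 from 55% to 60% and 1.15 at 65% or more. The part of GC content in the pileup ratio was not tested.

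**Figure D4:**
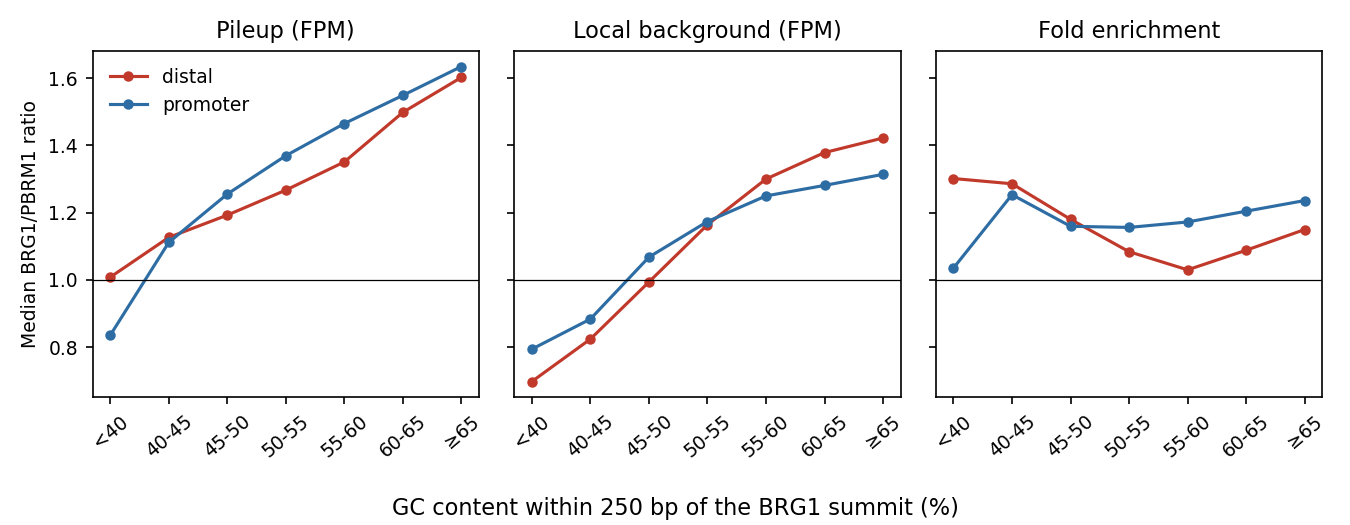
Median BRG1/PBRM1 ratio of pileup in FPM, of local background in FPM and of fold enrichment (vertical axis, 1 panel each) by GC content within 250 bp of the BRG1 summit (horizontal axis, %). Red is distal sites and blue is promoter regions in all lists; in distal sites the pileup median rises from 1.01 to 1.60 and the background median from 0.698 to 1.42, while the fold-enrichment median falls from 1.30 to 1.03 and then reaches 1.15.

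On the fold-enrichment scale the set largely dissolved. BRG1 fold enrichment was above that of PBRM1 at all 59 sites, with a median ratio of 1.52 against 1.15 at other distal sites. Over all distal sites the lower quartile of that ratio was 1.0004, so BRG1 was the higher at most distal sites. The pileup that chose the sites also enters the fold enrichment, so the count of 59 is a description. A fold-enrichment ratio of at least 2 was found at 3 of the 59 sites. These, named after their values were seen, were *Ttll5* (2.05), *Samd9l*, an interferon-induced gene whose background was at the genome-wide floor for both antibodies (2.09), and *Sgcd*, which encodes the delta-sarcoglycan of the muscle dystrophin complex (2.36). The *Sgcd* site (chr11:48097669-48098792) was intergenic, 109262 bp from the nearest start, with a GC content of 44.7% and a BRG1/PBRM1 background ratio of 0.846.

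Over all distal sites, 48 had a fold-enrichment ratio of at least 2, and 3 of the 48 (6.25%) were among the 59 (5.08% of those). The 48 were CpG-rich in 1 case (2.08%, Wilson 95% interval 0.369% to 10.9%), had a median GC content of 44.7% and lay a median of 33013 bp from a start. The raised share of CpG-rich sites and the nearness to starts thus belonged to the sites chosen by pileup in FPM and not to those chosen by fold enrichment.

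**Figure D5:**
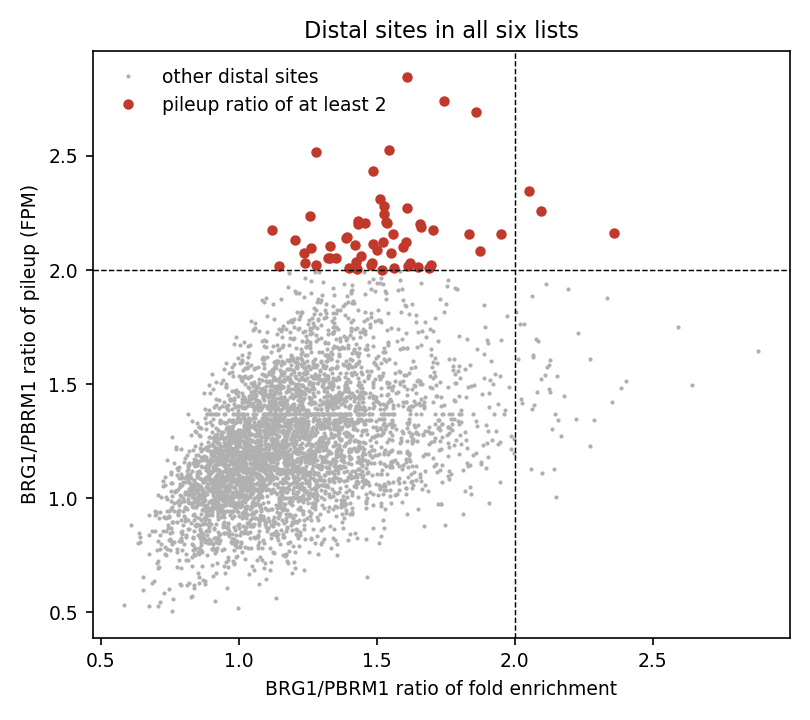
BRG1/PBRM1 ratio of pileup in FPM (vertical axis) against the ratio of deposited fold enrichments (horizontal axis) for the 4460 distal sites; dashed lines mark a ratio of 2 on each scale. Red points are the 59 sites with a pileup ratio of at least 2; 3 of them also pass 2 on the horizontal axis, and 45 gray points pass there alone.

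Summit position was not used to choose the sites, but the contrast between antibodies that the test below divides was. The p-value at the 59 sites is therefore a description and no support for a difference. At the 59 sites, summits of 2 BRG1 libraries lay 26.4 to 38.7 bp apart on average, and those of 2 PBRM1 libraries 139 to 171 bp apart. Summits of different antibodies were 116 bp apart (SD 11.8 over 9 pairs of libraries) and those of the same antibody 92.9 bp (SD 65.5 over 6 pairs). The gap of 23.4 bp gave p = 0.1 (one-sided exact permutation test over the 10 ways to divide the 6 libraries), the smallest p this design allows, and the gap turned negative when BRG1 replicate 3 was left out (-10.5 bp). It was positive through the close BRG1 summits, since summits of different antibodies lay nearer than those of 2 PBRM1 libraries. The gap therefore does not show separate positions for the 2 antibodies. At the other distal sites the averages were 136 bp within BRG1, 143 bp within PBRM1 and 151 bp between antibodies (gap 11.6 bp, exact permutation p = 0.1). The tighter BRG1 summits accompanied BRG1 medians of 25 to 29 fragments at the 59 sites, against 19 fragments in each PBRM1 library, and their dependence on signal was not tested. In the pooled lists the 2 summits were within 100 bp of each other at 37 sites (62.7%, against 65.1% of other distal sites). At 1 site, *Gm20388*, the pooled BRG1 summit lay outside the merged region.

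Repeated sequence was found at few of the 59 sites, but at a larger share of them than of other distal sites. In 4 of the 59 sites (6.78%, Wilson 95% interval 2.67% to 16.2%), *Cetn1*, *Lrp3*, *Samd9l* and *Cdk8*, more than 20% of the 31-base words within 100 bp of the summit occurred elsewhere in the genome, against 2.23% of other distal sites. Without the repeated sites the excess of the GC box was 28.0 percentage points, against 27.2 with them.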

How the data were processed

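Samples, groups and antibodies were taken from the labels. Per the labels, reads were processed with cutadapt, Bowtie2 and MACS2 on GRCm38.p5, and other alignment settings were not given in the sources used here. Per the file headers, the authors called peaks with MACS 2.2.7.1 from paired fragments (all duplicates in the input kept, q cutoff 0.05, effective genome size 2300000000, no control file). The deposited pileup is a signal (fragment coverage at the summit, not scaled), the deposited fold enrichment is a ratio to background (over 10 kb, with a genome-wide floor), and q-values are deposited as −log10 q. There were 6 replicate lists and 2 pooled lists, and the depth of each was read from its header.

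From these, regions, ratios and local backgrounds, solved from fold enrichment = (pileup + 1)/(background + 1), were computed with Python 3.11.15, numpy 2.4.6, pandas 2.3.3 and scipy 1.17.1. Starts came from GENCODE M21, and sequence and further starts from RefSeq on GRCm38.p6, whose chromosomes contained every peak. The merging, ratio and summit steps were tested on simulated data. The sites, gene lists, motifs and tests were chosen with earlier results of these data known, and the CpG, GC box, RefSeq and local background measures after seeing the data. Named sites were the 10 highest ratios, the 5 highest BRG1 pileups, up to 3 per gene list and the 3 on either side of the threshold; others are named as exceptions. Alternatives are given in the closing section.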

Additional observations from a re-analysis of the deposited data

How the results depend on the processing

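The 59 sites are a weakly bounded set. A ratio threshold of 1.5 gave 713 sites (15.99% of distal sites) with a median ratio of 1.64, and a threshold of 3 gave 0 sites (0%). The mean of the replicate lists gave 31 sites (0.695%), a −log10 q of at least 5 gave 20, a required cover of 50% of the merged region gave 16 (1.69%), and division of each CpG class by its own median ratio, chosen after seeing the data, gave 37, of which 3 were CpG-rich. Median scaling gave 1 site (0.0224%) with a ratio of 2.02. Leaving out 1 library, with replicate means in place of the pooled list, gave 28 to 67 sites, 0.578% to 1.32% of distal sites, and median ratios of 2.08 to 2.13, with 38 sites without BRG1 replicate 1, 38 without BRG1 replicate 3 and 28 without PBRM1 replicate 3. These runs required a peak only in the lists that remained. They kept 14 (without PBRM1 replicate 3) to 35 (without PBRM1 replicate 2) of the 59 sites. The other sites of each run were not among the 59. Distances over 1 kb and over 5 kb from a start gave 67 and 41 sites.

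Differences below are shares of the chosen sites minus those of other distal sites, in percentage points. Each 95% half-width is that of the chosen sites' own share or median. It leaves out the error of the other distal sites and is not an interval of the difference. The CpG-rich difference (41.6) was -4.33 with the fold-enrichment ratio and 1.75 with each CpG class divided by its own median, both inside their 95% half-widths, and exceeded the half-width in the other 14 settings; it was 18.3 at a threshold of 1.5, 64.3 at the stricter q, 57.5 with 50% cover and 93.7 for the single site left by median scaling, and 31.2 to 43.5 without 1 library. The GC box difference (27.2) was -8.48 for fold enrichment, 39.2 at the stricter q, 44.6 within 250 bp of the summit and 89.5 for the single site, and 11.0 to 30.9 without 1 library. The median GC difference (8.78 points) was -3.59 for fold enrichment, 4.99 at a threshold of 1.5 and 14.8 for the single site, and 6.79 to 11.5 without 1 library. The AP-1 difference (-3.94) was 1.09 within 50 bp of the summit, -26.1 within 250 bp, -20.1 with 50% cover and -17.4 for the single site, and -13.8 to -4.97 without 1 library. The TEAD difference (-6.21) was 2.48 for fold enrichment, 3.94 with 50% cover, -21.3 within 250 bp and -16.3 for the single site, and -11.9 to -1.34 without 1 library. The CTCF difference (3.77) was -1.38 for fold enrichment and -1.37 for the single site, and the RefSeq start difference (14.0) -6.64 and -6.57. Without 1 library these ran from 1.32 to 6.98 and from 4.2 to 14.7, and they lay inside the half-width in 17 of 18 and in 7 of 15 settings. The intergenic difference (10.1) was -49.4 for the single site.

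The median distance to a start differed by -7014 bp, by 18668 bp for fold enrichment, -2733 bp with replicate means, -2900 bp at a threshold of 1.5, -3307 bp with 50% cover, -12079 bp for the single site and -5330 to -1155 bp without 1 library. It lay inside its 95% half-width in 8 of 14 settings, among them without BRG1 replicate 1, BRG1 replicate 3 and PBRM1 replicate 3. The summit gap was -7.44 bp at the single site and -10.5 to 41.3 bp without 1 library. The cause of these changes was not tested. No paired analysis was possible because the 1 test divides the libraries in every way and has no blocked form; the labels tie no number to a shared animal or culture, and ratios by replicate number are descriptions. Depth limits each ratio: 9 fragments was the lowest library pileup at these sites, and intervals cover counting error only.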
